A study of Mus musculus with 6 samples.

Results

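The 10 genes described here are the 3 superoxide dismutases of the mouse (Sod1, Sod2, and Sod3) and 7 antioxidant genes that are tied to the transcription factor Nrf2 (Cat, Prdx1, Srxn1, Txn1, Nqo1, Hmox1, and Nfe2l2, which encodes Nrf2 itself). They were chosen by name, out of 37074 gene names on the array, and all 16 of their probes were used, of which 15 passed the detection filter. The mRNA expression levels were measured in left kidneys of 3 WT and 3 Selenbp1-KO males, with 1 array per mouse. Each animal was 8 weeks of age and had gone through 20 h of fasting. The paper names C57BL/6J as the strain of the WT mice and does not name a strain for the knockouts. Fasting was common to both genotypes, so nothing below describes fed kidneys. The WT mice were bought from a supplier and were not described as littermates of the knockouts, whose line was made in earlier work, so origin and genotype cannot be told apart. Every level is a log2 signal relative to the 75th percentile of its own array, and every difference is Selenbp1-KO minus WT on the log2 scale. Values by array are given in the order of replicates 2, 3, and 4 for WT and of replicates 1, 2, and 3 for Selenbp1-KO.

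Superoxide dismutases turn the superoxide anion into hydrogen peroxide and oxygen, and catalase, peroxiredoxins, and glutathione peroxidases then remove the hydrogen peroxide. Nrf2 is held back and degraded through its partner Keap1, and when cells are stressed by oxidants or electrophiles it accumulates, enters the nucleus, and activates genes that carry an antioxidant response element. The kidney, rich in mitochondria and peroxisomes, is a tissue in which both enzyme groups are abundant.

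None of the 10 genes passed the test for a difference between the genotypes. Of the 15 probes, 0 had an unadjusted p under 0.05 in limma, where 7.98% of all 56097 probes and 5.65% of the probes well above background did. After adjustment 0 of the 15 passed, beside 0.00357% of all probes. The differences of the brightest probe of each gene ran from −0.11 for Nfe2l2 to 0.15 for Sod1. Their median was −0.03, beside 0.13 over all genes and 0.02 over genes well above background. Values were lower in the knockout for 7 of the 10 genes and higher for 3 (Sod1, Prdx1, and Txn1), beside 45.8% lower among all genes well above background. A p that misses the threshold does not show that the genotypes were alike, so the 95% interval of each difference is given below. With 3 arrays against 3, an exact permutation test cannot go below p = 0.10.

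All 6 arrays came from 1 slide, with WT replicates 2 and 3 in its first row and WT replicate 4 and all 3 Selenbp1-KO replicates in its second, so row and genotype were partly confounded. Selenbp1 itself fell by 2.96 (standard error 0.098, limma adjusted p = 0.0021) and was lower on all 3 knockout arrays, where its probe was still well above background at a mean of 4.07. The probe of its homologue Selenbp2 fell by 3.22 (limma adjusted p = 0.0021), and whether either probe also reads the other gene was not tested. The 75th percentile of the signal was 477 to 751 units, 51.8% to 55.5% of the spots were well above background, and no spot was saturated. All 12 kidney markers (such as Umod and Lrp2) were well above background on every array, and 0 of them passed the test. Macrophage markers were called higher in the knockout for 10 of 18 genes, and their summed level was 20.8 to 25.4 in WT against 28.6 to 32.4. Red blood cell markers were called higher for 8 of 12 genes, with a summed level of 557 to 730 in WT against 788 to 1182, while Ahsp and Epb42 of this list were not well above background on any array. In the smooth muscle and endothelial, adrenal cortex, and fat tissue lists, 0 of 14, 0 of 9, and 0 of 9 markers were called. All 9 fat markers nevertheless had a higher mean in the knockout, with a median difference of 0.74 and summed levels of 13.8 to 51.5 in WT against 23.4 to 129.6, beside medians of 0.45 for the macrophage and 0.57 for the red blood cell list. In bulk RNA, more cells of a type and more RNA per cell cannot be told apart.

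The probes of the dismutases and of Nfe2l2 are shown so that the several probes of Sod1 and of Nfe2l2 can be told apart. Each is given by the first 30 of its 60 bases as the files list them, and all letters are in lower case because no motif is marked.
Sod1, NM_011434: cagtaaacattccctgtgtggtctgagtct
Sod1, BC057074: ccttcttaaaagccaaggtctttaaatgtg
Sod2, NM_013671: ctgttagacctgacaggattagctgtagta
Sod3, NM_011435: ccttagagagagtatttgggaacctttatg
Nfe2l2, NM_010902: ctcaagttaatttcttaggcaccatttggg
Nfe2l2, ENSMUST00000152371: gtgctctgtcacctttaatatcacaacaat
Their coordinates, on mm9 as the files give them, stand beside the values.

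Sod1 encodes the copper and zinc dismutase of the cytosol. Its brightest probe (NM_011434, chr16:90226497-90226556, plus strand) read 7.57, 7.56, and 7.69 on the WT arrays and 7.74, 7.77, and 7.74 on the Selenbp1-KO arrays. The 3 knockout arrays all lay above the WT arrays, and the WT array nearest to them was replicate 4, from their own slide row. The WT mean was 7.60 ± 0.071 (SD, n = 3) and the knockout mean 7.75 ± 0.018 (SD, n = 3), which differed by 0.15 (95% interval −0.09 to 0.38, limma adjusted p = 0.450). On a linear scale this was 10.6% higher, with an interval from −5.95% to 30.1%. A gap of this kind, with the knockout arrays on top, was held by 10.8% of all probes well above background. Within the second slide row, the Selenbp1-KO mean was 0.06 above WT replicate 4, and it was 0.19 above the WT mean of the first row. The size of the Sod1 difference also depended on the normalization. It was 0.02 with quantile normalization and 0.04 with the authors' normalized values. Red blood cells are rich in Sod1 protein, and their markers rose over the same arrays as given above. Their part in the Sod1 value was not tested.

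A dim Sod1 probe (BC057074, chr16:90224181-90224240) lies 2316 bases upstream of the first on the same strand. It read −2.47, −2.79, and −2.18 on the WT arrays and −2.90, −2.48, and −2.80 on the Selenbp1-KO arrays. The genotypes overlapped and the sign was the opposite of that of the brightest probe, with a difference of −0.25 (standard error 0.20, limma adjusted p = 0.549). The dim probe had a signal of 76 to 128 units, against 104166.1 to 141626.5 for the brightest one. Averaging both on the log2 scale, with equal weight, turned the Sod1 difference to −0.05. Its direction thus rests on the weight that the dim probe is given.

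Sod2 encodes the manganese dismutase of the mitochondrial matrix. Its probe (NM_013671, chr17:13210864-13210923, plus strand) read 2.89, 2.93, and 3.29 on the WT arrays and 3.05, 2.86, and 2.99 on the Selenbp1-KO arrays. WT replicate 4 was the highest of the 6 arrays and the other two WT arrays lay within the Selenbp1-KO range, so the genotypes overlapped. The WT mean of 3.04 ± 0.22 (SD, n = 3) and the knockout mean of 2.97 ± 0.096 (SD, n = 3) differed by −0.07 (95% interval −0.42 to 0.28, limma adjusted p = 0.855). On a linear scale the interval ran from −25.0% to 21.8%. The direction depended on WT replicate 4: without it the difference was 0.06, and against it alone, within the second slide row, the Selenbp1-KO mean was lower, by −0.32.

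Sod3 encodes the dismutase that is secreted and bound to the extracellular matrix. Its probe (NM_011435, chr5:52760685-52760744, plus strand) read 6.02, 5.99, and 6.00 on the WT arrays and 6.01, 5.98, and 6.00 on the Selenbp1-KO arrays. Both genotypes covered nearly the same range, with a mean of 6.00 and an SD of 0.017 in WT and 0.018 in the knockout (n = 3 each). The difference was −0.0039 (95% interval −0.22 to 0.22, limma adjusted p = 0.989), which on a linear scale leaves room for a change from −14.4% to 16.2%. With quantile normalization the difference was −0.12, past the unadjusted threshold (limma adjusted p = 0.584).

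**Figure D1:**
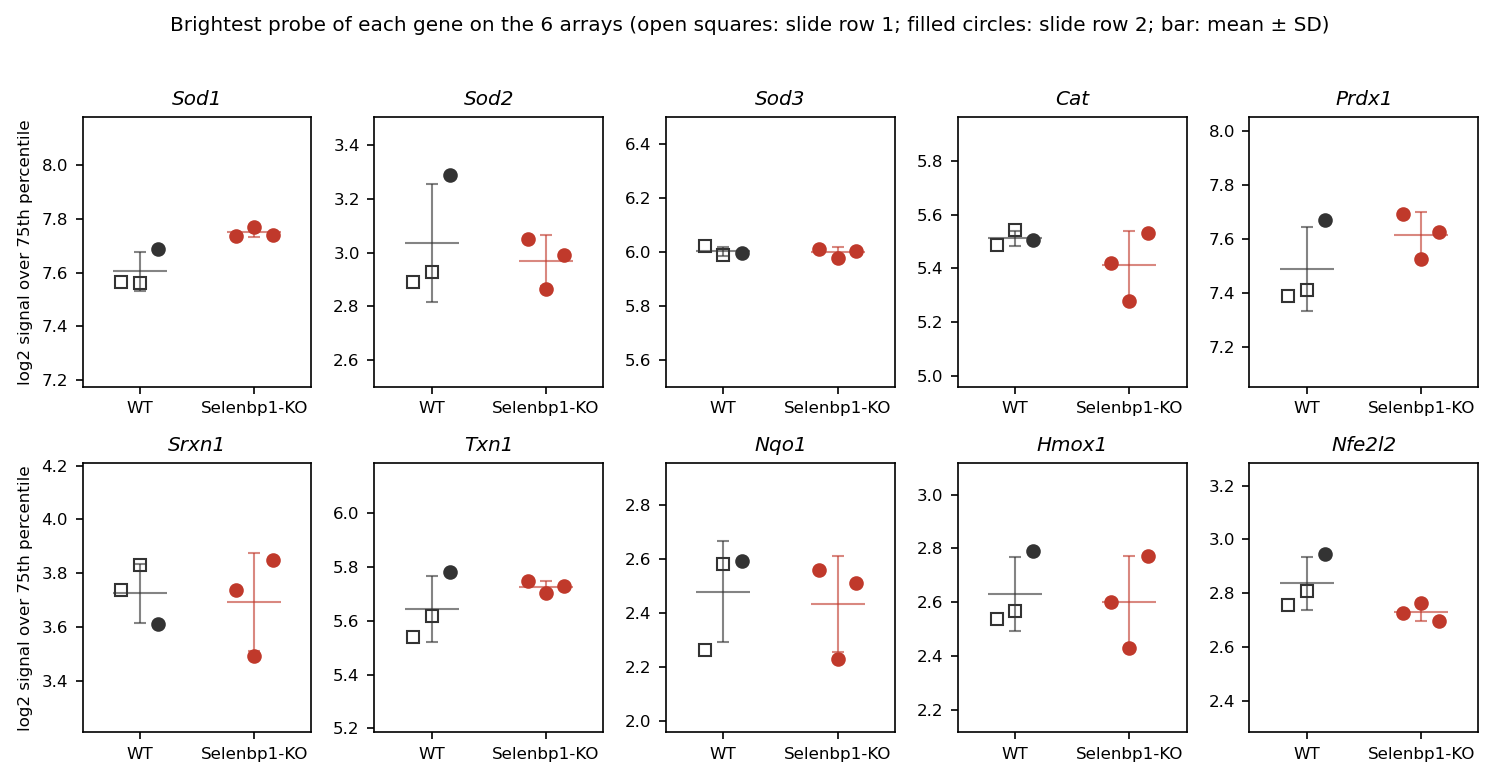
Log2 signal relative to the 75th percentile of the array (y axis, the same span of 1 unit in each panel) for the brightest probe of each of the 10 genes on the 6 arrays, with WT in black, Selenbp1-KO in red, open squares for the first slide row, filled circles for the second, and bars for mean ± SD. The genotypes are apart only for Sod1, where the Selenbp1-KO arrays lie between 7.74 and 7.77, and WT replicate 4 is the highest WT array for 7 of the 10 genes. The latter was not counted over all genes.

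Catalase (Cat) breaks down hydrogen peroxide in peroxisomes. Its probe (NM_009804, chr2:103294660-103294719, minus strand) read 5.49, 5.54, and 5.50 on the WT arrays and 5.42, 5.28, and 5.53 on the Selenbp1-KO arrays. The lowest 2 arrays were Selenbp1-KO, but replicate 3 lay within the WT range. The difference was −0.10 (95% interval −0.36 to 0.16, limma adjusted p = 0.680), and it stayed below 0 in all 17 alternatives, from −0.21 to −0.03. Some of these cannot move it, namely the filters, the trend and robust options, and averaging over the probes of a gene with 1 probe. Within the second slide row it was −0.09.

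Prdx1, a peroxiredoxin of the cytosol that reduces hydrogen peroxide, had 4 probes. The brightest (NM_011034, chr4:116372029-116372088, plus strand) read 7.39, 7.41, and 7.67 on the WT arrays and 7.69, 7.53, and 7.63 on the Selenbp1-KO arrays. WT replicate 4 sat among the Selenbp1-KO arrays, while the WT arrays of the first slide row were below them all. The difference was 0.13 (95% interval −0.17 to 0.42, limma adjusted p = 0.638), 0.22 against the WT arrays of the first row, and −0.05 within the second. The 2 further probes of the same transcript differed by 0.07 (standard error 0.11) and 0.11 (standard error 0.13). The last probe (ENSMUST00000129315), well above background on 3 WT and 2 Selenbp1-KO arrays, differed by −0.0041 with a standard error of 0.38. Its Selenbp1-KO arrays had an SD of 0.77, so it fixes little.

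Srxn1 encodes sulfiredoxin, which repairs peroxiredoxins that have been over-oxidized. Its probe (NM_029688, chr2:151937009-151937068, plus strand) read 3.74, 3.83, and 3.61 on the WT arrays and 3.74, 3.49, and 3.85 on the Selenbp1-KO arrays. The Selenbp1-KO arrays held both the highest and the lowest of the 6 values. The difference was −0.03 (95% interval −0.36 to 0.30, limma adjusted p = 0.929).

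Txn1 encodes thioredoxin, the reductant of the peroxiredoxins. Its probe (NM_011660, chr4:57956677-57956736, minus strand) read 5.54, 5.62, and 5.78 on the WT arrays and 5.75, 5.70, and 5.73 on the Selenbp1-KO arrays. As for Prdx1, the Selenbp1-KO arrays lay above the first-row WT arrays, by 0.15 on average, and WT replicate 4 lay above them, by enough to make the difference within the second row −0.05. Over all arrays the difference was 0.08 (95% interval −0.18 to 0.34, limma adjusted p = 0.740).

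Nqo1 encodes a quinone reductase and is a classical target of Nrf2. Its probe (NM_008706, chr8:109912440-109912499, minus strand) read 2.26, 2.58, and 2.59 on the WT arrays and 2.56, 2.23, and 2.51 on the Selenbp1-KO arrays. Each genotype had 1 low array, and the difference was −0.04 (95% interval −0.41 to 0.32, limma adjusted p = 0.911).

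Hmox1 encodes the inducible heme oxygenase, which is also raised by heme. Its probe for the main transcript (NM_010442, chr8:77624406-77624466, plus strand) read 2.54, 2.57, and 2.79 on the WT arrays and 2.60, 2.43, and 2.77 on the Selenbp1-KO arrays. The ranges overlapped and the difference was −0.03 (95% interval −0.36 to 0.30, limma adjusted p = 0.937). The other Hmox1 probe (ENSMUST00000160341) was well above background on 0 arrays and was not tested.

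Nfe2l2 was read by 2 probes. The brighter (NM_010902, chr2:75513771-75513830, minus strand) read 2.76, 2.81, and 2.95 on the WT arrays and 2.73, 2.76, and 2.70 on the Selenbp1-KO arrays. The highest Selenbp1-KO array lay just above the lowest WT array, so the genotypes overlapped by a narrow margin. The difference was −0.11 (95% interval −0.36 to 0.14, limma adjusted p = 0.622). The other probe (ENSMUST00000152371, chr2:75529291-75529350, minus strand), 15520 bases away, read 1.65, 1.86, and 1.57 on the WT arrays and 1.42, 1.51, and 1.48 on the Selenbp1-KO arrays. All 3 Selenbp1-KO arrays were below all 3 WT arrays here, a pattern with this direction held by 6.81% of the probes well above background. Its difference was −0.22 (95% interval −0.51 to 0.06, limma adjusted p = 0.321), which is −14.3% on a linear scale. Their values were lower in all 17 and all 16 alternatives run for the brighter and the dimmer probe, and within the second slide row their differences were −0.22 and −0.10. The filters and the trend and robust options cannot move a difference, so they say nothing on its direction.

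**Figure D2:**
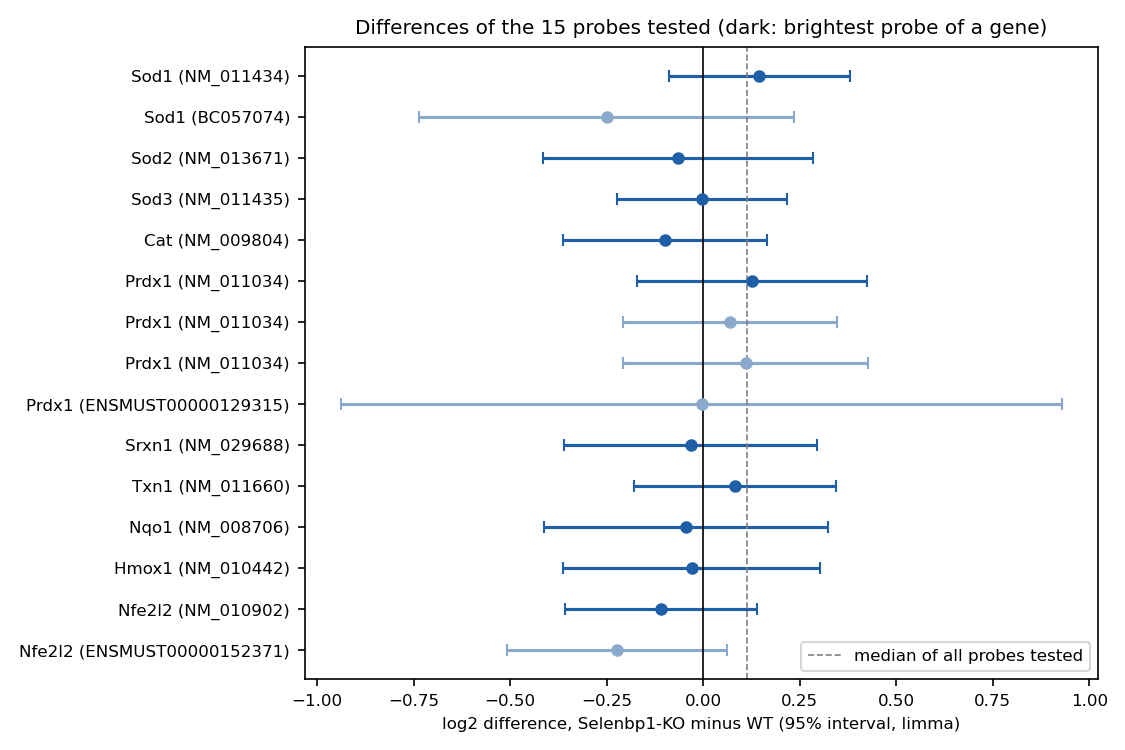
Log2 difference, Selenbp1-KO minus WT (x axis), with its 95% interval from limma for the 15 probes tested (y axis, gene and accession), the brightest probe of each gene in dark blue and further probes in light blue. Every interval holds 0, and the intervals of the brightest probes reach from −0.42 at the lowest (Sod2) to 0.42 at the highest (Prdx1), with a dashed line at 0.11, the median of all probes tested.

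Single arrays stood high or low across members. The same was not counted over all genes, so the counts below do not set the members apart. WT replicate 4 was the highest WT array for 7 of the 10 genes and the highest of all 6 for 5 of them. Selenbp1-KO replicate 2 was the lowest Selenbp1-KO array for 8 genes and the lowest of all 6 for 6 of them. It also had the highest summed level of fat tissue markers, 129.6 against 13.8 to 55.0 on the other arrays, and the lowest 75th percentile of the signal, 477. The part of either in its low member values was not tested.

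Promoters of the members were searched for TGACNNNGC, the core of the antioxidant response element, through which Nrf2 acts, on both strands, from 250 bases before to 50 bases after the gene start (RefSeq, GRCm38.p6). Of the 8 members with a promoter in the table, 4 held it, against 12.4% of all 32851 promoters. The 4 matches are shown with the motif in capitals, each read in the direction of its gene, so that a match on the opposite strand reads as the reverse complement.
Nfe2l2, chr2:75704884-75704913, minus strand: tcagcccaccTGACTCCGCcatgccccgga
Srxn1, chr2:152105542-152105571, plus strand: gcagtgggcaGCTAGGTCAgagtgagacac
Prdx1, chr4:116685456-116685485, plus strand: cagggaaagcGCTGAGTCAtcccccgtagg
Sod1, chr16:90220696-90220725, plus strand: gccaaggtggGCGTGGTCAgactcaggcct
The match began 240, 133, and 56 bases before the start in Nfe2l2, Prdx1, and Sod1 and 28 bases after it in Srxn1. The 4 genes with a match differed by −0.11, −0.03, 0.13, and 0.15 (Nfe2l2, Srxn1, Prdx1, and Sod1), and the 4 without (Cat, Txn1, Nqo1, and Sod2) by −0.10, 0.08, −0.04, and −0.07. A match is a description of the letters and not of binding, and the elements of some Nrf2 targets lie outside this window.

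The rest of the pathway was read from 6 lists that together held 113 further genes, each by its brightest probe. At an unadjusted p under 0.05, 5 of them were higher in the knockout and 0 were lower, which is 4.42%, beside 8% of all genes and 5.79% of the genes well above background. The split by direction depended on the processing: 9 of 16 calls were lower with quantile normalization, 5 of 14 with the authors' values, 6 of 19 with trend and robust options, 3 of 4 with slide row as a block, and 4 of 7 without Selenbp1-KO replicate 2. After adjustment 0 passed (lowest limma adjusted p = 0.279).

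Among 36 Nrf2 target genes, 1 was called, 19 were higher and 17 lower, and the median difference was 0.01. Gclc and Gclm, the subunits that make the precursor of glutathione, differed by −0.19 (standard error 0.14) and −0.07 (standard error 0.13). Gsr, glutathione reductase, differed by −0.11, and Txnrd1, the cytosolic thioredoxin reductase, by −0.19 on its brighter and −0.36 on its dimmer probe, neither past the threshold. The 1 called target, Slc7a11, a cystine transporter, was not well above background on any array, so it gives no fold.

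Of the 14 regulators and partners of Nrf2, 0 were called, with a median difference of −0.11. Values were lower in the knockout for 11 of the 14, beside 45.8% of all genes well above background. Under some alternatives single genes of this list passed the unadjusted threshold. Examples were Cul3 (lower, −0.19 with quantile normalization) and Rbx1 (higher, 0.16 with trend and robust options). Keap1, the adaptor that hands Nrf2 to degradation, had a mean of 2.14 ± 0.015 (SD, n = 3) in WT and of 2.08 ± 0.057 (SD, n = 3) in the knockout, which differed by −0.07 (standard error 0.094, limma adjusted p = 0.762). Bach1, a repressor that competes with Nrf2 for the same element, read 0.88, 0.92, and 1.12 on the WT arrays and 0.64, 0.79, and 0.85 on the Selenbp1-KO arrays. Its genotypes did not overlap, a pattern with this direction held by 6.81% of the probes well above background. Its difference of −0.21 (standard error 0.12, limma adjusted p = 0.362) did not pass. Bach1 did pass the unadjusted threshold with trend and robust options (limma adjusted p = 0.359). With slide row as a block the difference was −0.36, which rests on WT replicate 4 as the only WT array of the second row.

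In the peroxiredoxin and thioredoxin system, 0 of 21 genes were called, with a median difference of 0.04. The other peroxiredoxins differed by 0.09 (Prdx2), 0.09 (Prdx3), 0.0075 (Prdx4), 0.19 (Prdx5), and −0.07 (Prdx6) on their brightest probes. A second, dim Prdx4 probe (ENSMUST00000123915) differed by 0.63, past the unadjusted threshold, against 0.0075 on the brighter one, so the 2 probes of Prdx4 disagree. Txn2, the mitochondrial thioredoxin, and Txnip, which binds and inhibits thioredoxin, differed by 0.11 and 0.08. Among the 12 genes that supply metals to the dismutases, 0 were called and the median difference was 0.06, and Ccs, the copper chaperone of Sod1, differed by 0.06 (standard error 0.098).

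Of the 17 genes of glutathione peroxidases and glutathione synthesis, 2 were called, both higher, and the median difference was 0.13. Gpx4, which reduces lipid peroxides in membranes, was read by a probe on chromosome 10 (NM_001037741, chr10:79518691-79518842). It read 7.13, 7.16, and 7.32 on the WT arrays and 7.59, 7.64, and 7.51 on the Selenbp1-KO arrays. The knockout arrays all lay above the WT arrays, a pattern with this direction held by 10.8% of the probes well above background. The Gpx4 difference was 0.38 (standard error 0.11, limma adjusted p = 0.279). It passed the unadjusted threshold in 14 of 16 alternatives, all but slide row and replicate number as blocks, with differences from 0.23 to 0.44. After adjustment it passed in 2 of them, with trend and robust options (limma adjusted p = 0.000962) and without WT replicate 4 (limma adjusted p = 0.049). Gpx7, a peroxidase of the endoplasmic reticulum, read −2.80, −2.65, and −2.94 on the WT arrays and −2.42, −2.37, and −2.58 on the Selenbp1-KO arrays, a difference of 0.35 (standard error 0.12, limma adjusted p = 0.279) that passed in 9 of 16 alternatives. The Gpx7 call was lost without WT replicate 2, WT replicate 4, Selenbp1-KO replicate 1, or Selenbp1-KO replicate 2, and with median scaling, trend and robust options, or the replicate number as a block, with differences from 0.26 to 0.49 over the alternatives. Gpx1 and Gpx3, the abundant cytosolic and secreted forms, differed by 0.13 and 0.14 and were not called. With quantile normalization Gpx3 turned to −0.15 and passed the unadjusted threshold as lower (limma adjusted p = 0.562). Gpx1 passed it as higher with trend and robust options (limma adjusted p = 0.359).

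Enzymes that make superoxide were read from 18 genes, 5 of them not well above background on any array, and 2 were called, both higher, with a median difference of 0.22 (0.08 over those well measured). Ncf4, a subunit of the phagocyte oxidase, read −3.56, −3.06, and −2.73 on the WT arrays and −2.43, −2.53, and −2.64 on the Selenbp1-KO arrays. It was higher on every Selenbp1-KO array than on any WT array, as were 10.8% of the probes well above background. The Ncf4 difference was 0.59 (standard error 0.22, limma adjusted p = 0.279), and it passed in 8 of 16 alternatives. The Ncf4 call was lost without any 1 array other than WT replicate 4, with slide row as a block, with quantile normalization, and with the authors' values, and its difference ran from 0.20 to 0.78. Without WT replicate 4 it passed after adjustment (limma adjusted p = 0.049). Macrophage markers rose on the same arrays, and their part in the Ncf4 value was not tested. Cyba and Cybb, the membrane subunits of that oxidase, differed by 0.14 and −0.16 on their brightest probes, Nox4, the main renal homologue, by −0.17, and Xdh, which makes superoxide while degrading purines, by 0.04, all without passing. The other Cybb probe differed by 0.37, and both were dim (well above background on 3 WT and 2 Selenbp1-KO arrays for the first, 2 and 2 for the other), so they give no direction for Cybb. Nox1, named here after its values were seen, was also called but was not well above background on any array.

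**Figure D3:**
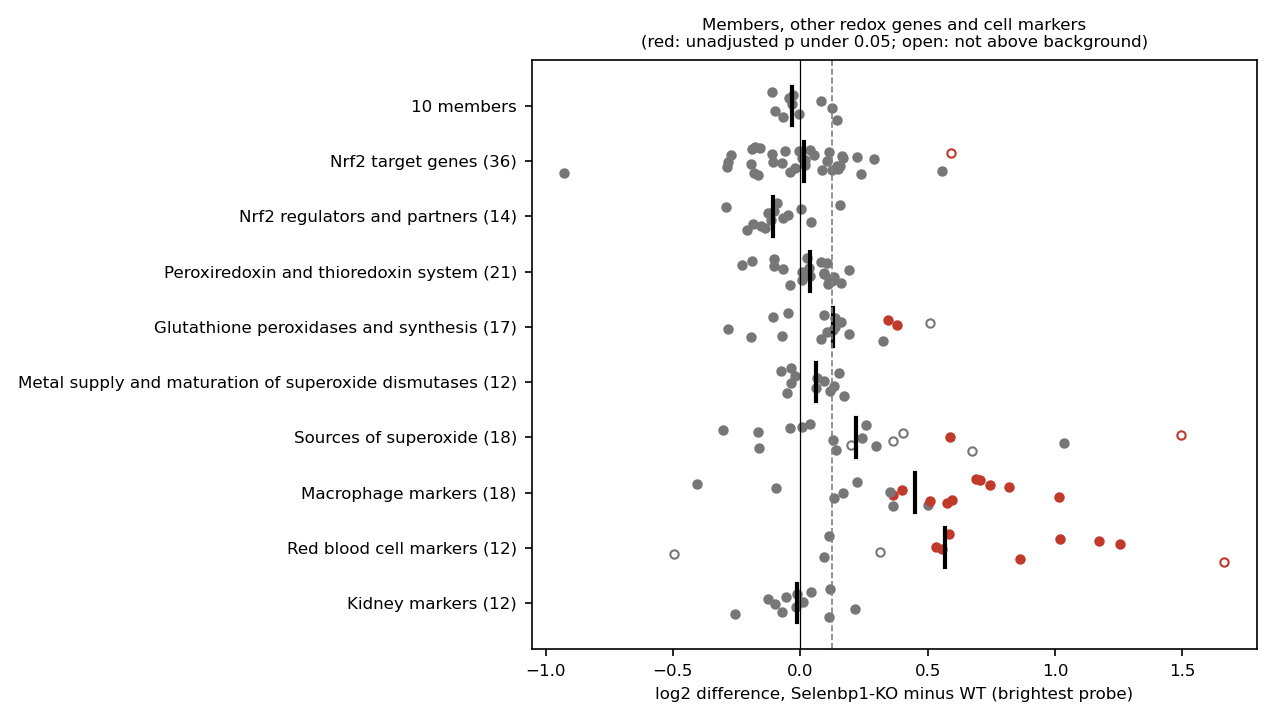
Log2 difference, Selenbp1-KO minus WT, of the brightest probe (x axis) for each gene of the members, 6 redox lists, and 3 cell marker lists (y axis, number of genes in brackets), with black bars at list medians, red for an unadjusted p under 0.05, open circles for probes not well above background, and a dashed line at 0.13, the median of all genes. The members lie between −0.11 and 0.15 with 0 called, while 10 of 18 macrophage and 8 of 12 red blood cell markers are called, all higher.

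**Figure D4:**
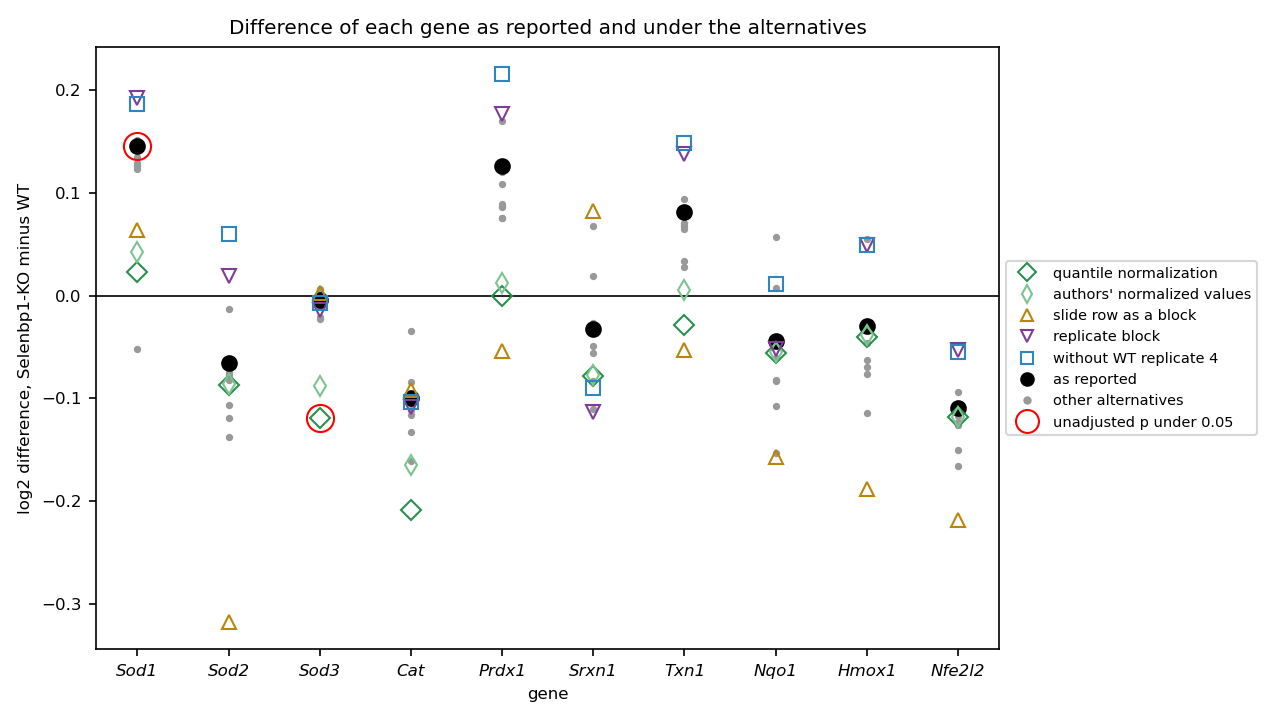
Log2 difference, Selenbp1-KO minus WT (y axis), of the brightest probe of each gene (x axis) as reported (black) and under each alternative processing (coloured symbols and grey points), with red circles at an unadjusted p under 0.05. Cat and Nfe2l2 are below 0 throughout, the other 8 genes have values on both sides of 0, and the 2 calls are Sod1 with a trended, robust variance at 0.15 and Sod3 with quantile normalization at −0.12.

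By the pattern over the 6 arrays, the genes most like Sod1 among 14839 well above background were Tsacc (Pearson r = 0.998), Ly86 (0.997), and Gmfg (0.996). For Sod2 they were Gria3 (0.996), Prlr (0.996), and Galnt14 (0.992). With 6 arrays a high r does not single out a few genes: of the 14839, 593 had r over 0.9 with Sod1 and 252 with Sod2. Genotype, slide row, and depth all vary over these arrays, and their part in the patterns was not tested.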

How the data were processed

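Cy3-labeled kidney RNA of 3 WT and 3 Selenbp1-KO mice was hybridized to 6 one-color Agilent arrays. The authors deposited, for each array, Feature Extraction output (version 10.7.1.1 in the file headers, 9.5.1.1 in the submitters' processing notes). Its processed signal is a linear intensity, background-subtracted within the array. The deposited p-value of a spot is the software's test of that spot against background. A table of linear intensity values that the authors deposited ranks probes as the scanner output does and has 1 shared median of 24.4, so it was taken as quantile normalized.

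The log2 of each deposited intensity was set relative to the 75th percentile of its array. Outlier spots were dropped and repeat spots averaged per probe. A probe was tested where 1 array or more had a detection p under 0.05 (56097 of 56605). The genotype difference was fitted in R 4.3.3 by limma 3.58.1 with two-sided moderated tests (lmFit, then eBayes), at an unadjusted p under 0.05 as in the study's methods, with Benjamini–Hochberg values beside it. The brightest probe over 6 arrays represents a gene. "Well above background" is the software's flag, and in counts it means every array of at least 1 genotype. Array number limits the precision.

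The members and lists were chosen with earlier results of these data known. Members were all named. Other genes were a set list, plus up to 5 per list that passed and were well above background, and the 3 nearest patterns for Sod1 and Sod2. Accessions of 32994 probes matched a RefSeq table (GRCm38.p6), which then named the gene, and other probes kept the file's name. The fit was tested on simulated data. Replicates are separate mice. Alternatives were normexp (offset 50), quantile and median scaling, the authors' table, 2 filters, flagged spots kept, trend and robust options (statmod 1.5.0), slide row or replicate number as a block, each array left out, all probes averaged, and adjusted p. With slide row as a block, the Selenbp1-KO arrays are compared with WT replicate 4 alone, because the first row holds only WT arrays. With replicate number as a block, the difference rests on numbers 2 and 3, the only ones in both genotypes. The RT-PCR and enzyme assays of the study were not analysed here.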

Additional observations from a re-analysis of the deposited data

How the results depend on the processing

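The count of member genes past the threshold stayed at 0 except for 1 with quantile normalization (Sod3) and 1 with trend and robust options (Sod1, difference 0.15, limma adjusted p = 0.359). It was 0 whichever array was left out (range 0 to 0). The dimmer Nfe2l2 probe also passed with trend and robust options (−0.22, limma adjusted p = 0.359). The count of all probes, 4479, became 14616 with median scaling, 2841 when dim probes were filtered out, 7536 with trend and robust options, 18430 with the replicate block, and 2 with adjusted p, and leaving out 1 array gave 2024 (WT replicate 2) to 17585 (WT replicate 4). The 5 calls among further genes became 9 with normexp, 16 with quantile normalization, 14 with the authors' values, 19 with trend and robust options, 8 with the mean of all probes, 0 with adjusted p, and 2 to 9 with 1 array left out (2 without WT replicate 2, 3 without WT replicate 3 or Selenbp1-KO replicate 1, 9 without WT replicate 4). Of all calls, 18.9% were lower, against 46.2% with quantile normalization and 62.7% with slide row as a block. The median of all probes was 0.11, 0.0003 with quantile normalization.

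Directions turned for Sod1 with the mean of all probes (−0.052), Sod2 with the replicate block (0.019), and Sod3 with slide row (0.0026). Prdx1 turned with quantile normalization (−0.0001) and slide row (−0.054), and its further probes with quantile normalization (−0.027), the authors' values (−0.014), the replicate block (−0.0026), and normexp (0.18). Srxn1 turned with slide row (0.082), Txn1 with quantile normalization (−0.029) and slide row (−0.053), and Hmox1 with the replicate block (0.049). Leaving out 1 array moved Sod2 from −0.14 (without WT replicate 2) to 0.060 (without WT replicate 4) and Sod3 from −0.011 to 0.0064. It moved Srxn1 from −0.11 to 0.068, Nqo1 from −0.15 to 0.057, Hmox1 from −0.11 to 0.055, and the dim Prdx1 probe (ENSMUST00000129315) from −0.34 to 0.42, each highest without Selenbp1-KO replicate 2. The causes were not tested. Genotypes share only the numbers 2 and 3, whose deviations correlate by 0.17 and 0.19, so the numbers were not taken as pairs. The replicate block rests on these numbers alone, and WT replicate 4 and Selenbp1-KO replicate 1 drop out of its differences.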
